A study of Mus musculus with 6 samples.

Results

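Keratins are the intermediate filament proteins of epithelial cells, and 8 of their genes, Krt7, Krt8, Krt18, Krt19, Krt20, Krt17, Krt23 and Krt80, were followed here across 6 RNA-seq libraries of cultured mouse liver progenitor-like cells. They were chosen by name, with earlier results of these data known. The choice took the keratins of simple epithelia together with relatives that appear in activated or stratifying epithelium. All 8 have a row in every count table. They are 8 of the 53 keratin genes and of the 20573 gene symbols that the 6 tables share. The libraries form 3 groups of 2, all from C57BL/6 mice labelled as 6 to 8 weeks old and all grown in the same culture medium, Transition and Expansion Medium. Bec_LPCs grew out of pieces of intrahepatic bile duct of wild-type mice, plated in matrigel, passaged 1 to 2 times and sorted. The series text calls them Epcam-positive. Hep_LPCs were derived from hepatocytes of ROSA26tdTomato reporter mice given AAV8-TBG-Cre, a viral vector in which a hepatocyte promoter drives Cre, so that hepatocytes and their descendants carry the tdTomato mark. NPC_LPCs were derived from the non-parenchymal fraction of AlbCreERT/R26GFP mice, in which the albumin promoter drives an inducible Cre. The labels do not say whether the 2 libraries of a group came from separate animals or cultures, so the spread between them, and every p-value built on it, may be technical.

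A keratin filament is built from heterodimers of an acidic type I and a basic type II keratin, and an unpaired partner is normally degraded. Krt8 (type II) and Krt18 (type I) make up the filaments of hepatocytes, in which they give the cell mechanical and stress resistance, while bile duct cells add Krt7 (type II) and Krt19 (type I). Krt19 and Krt7 are therefore the usual histological marks of bile ducts and of the ductular reaction of injured liver. Krt20 is a type I keratin of intestinal and urothelial surface cells, Krt17 a type I keratin of skin appendages and of wounded epithelium, Krt23 a type I keratin known from injured liver and gut tumours, and Krt80 a type II keratin of differentiating epithelia.

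The 8 genes lie in the 2 mouse keratin clusters (GENCODE M21 annotation, mm10). The type I genes Krt20 (chr11:99428403-99438150), Krt23 (chr11:99477974-99493137), Krt19 (chr11:100140810-100148665) and Krt17 (chr11:100256217-100261029) are all on the minus strand of chromosome 11, in a cluster that holds 27 of the shared keratin genes over 1037.1 kb. The type II genes Krt80 (chr15:101347444-101370162, minus strand), Krt7 (chr15:101411043-101430313, plus strand) and Krt8 (chr15:101996698-102004482, minus strand) lie in the chromosome 15 cluster of 26 genes over 684.6 kb. Krt18 (chr15:102028180-102032027, plus strand) is a type I gene but sits at the end of the type II cluster, 23.7 kb from Krt8 and on the opposite strand. The neighbours Krt8 and Krt18 had the most similar pattern over the libraries of any pair among the 8 genes, and Krt7 and Krt20 had among the least similar. The promoter windows of these 4 are therefore printed here, each running from 250 bases before to 50 after the annotated start and taken from RefSeq (GRCm38.p6). Capitals mark TATAAA in Krt20 and Krt8 and GGGCGG in Krt7, or their reverse complements, and the Krt18 window holds neither.
Krt8, chr15:102004293-102004592, minus strand: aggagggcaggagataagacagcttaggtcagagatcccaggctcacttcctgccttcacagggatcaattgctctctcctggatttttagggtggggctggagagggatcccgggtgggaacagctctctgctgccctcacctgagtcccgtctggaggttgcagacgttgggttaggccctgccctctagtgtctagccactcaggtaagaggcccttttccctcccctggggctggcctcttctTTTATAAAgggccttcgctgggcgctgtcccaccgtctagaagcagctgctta
Krt18, chr15:102027966-102028265, plus strand: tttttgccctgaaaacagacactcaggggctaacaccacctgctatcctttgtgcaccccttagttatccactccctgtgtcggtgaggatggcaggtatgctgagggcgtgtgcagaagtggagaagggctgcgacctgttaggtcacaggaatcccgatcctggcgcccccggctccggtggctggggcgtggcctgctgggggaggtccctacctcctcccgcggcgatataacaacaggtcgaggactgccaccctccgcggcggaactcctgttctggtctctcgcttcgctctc
Krt7, chr15:101412153-101412452, plus strand: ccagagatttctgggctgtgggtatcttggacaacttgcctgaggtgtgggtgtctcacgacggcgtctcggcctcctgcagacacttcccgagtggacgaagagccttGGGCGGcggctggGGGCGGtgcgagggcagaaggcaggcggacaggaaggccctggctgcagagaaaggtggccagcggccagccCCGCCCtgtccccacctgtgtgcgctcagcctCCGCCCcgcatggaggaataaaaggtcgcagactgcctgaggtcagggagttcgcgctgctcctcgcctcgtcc
Krt20, chr11:99438104-99438403, minus strand: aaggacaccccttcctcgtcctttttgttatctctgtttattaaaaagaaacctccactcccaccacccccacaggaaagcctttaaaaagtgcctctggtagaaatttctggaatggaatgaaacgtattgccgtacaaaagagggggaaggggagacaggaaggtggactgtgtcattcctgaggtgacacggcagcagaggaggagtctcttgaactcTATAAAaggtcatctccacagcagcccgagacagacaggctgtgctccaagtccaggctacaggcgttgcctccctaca
Windows were matched for 5 of the 8 genes, these 4 and Krt23. Both strands were searched. TATAAA (the TATA box) was in 2 of the 5, at position -29 relative to the annotated start in Krt20 and at positions -1 and, on the opposite strand, -3 in Krt8, where the 2 matches overlap. It was in 13.6% of all 32851 RefSeq windows. GGGCGG (the GC box) was in 1 of the 5, Krt7, with 4 matches at positions -141, -128, -56 and -24, and in 35.7% of all windows. TGANTCA (the AP-1 motif), CCAAT and AACCGGTT (a GRHL motif) were in none of the 5 and in 7.81%, 37.4% and 0.146% of all windows. A match is a description of these letters and not a measured site.

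Polyadenylated RNA was sequenced with a stranded, paired-end kit. The tables hold 22985844 and 22634867 counts for the Bec_LPCs libraries, 18123118 and 17575998 for the Hep_LPCs libraries and 17919947 and 20625957 for the NPC_LPCs libraries. Levels below are in CPM, the count of a gene scaled to a common library size, on library sizes adjusted by TMM, a scaling that is robust to a few very abundant genes, and 3 counts correspond to 0.127 to 0.178 CPM. The Bec_LPCs tables are laid out differently from the others and hold no FPKM. Comparisons with Bec_LPCs therefore cannot tell apart the group, the mouse genotype, the plating and passaging, the sort and the way the table was made. Between Hep_LPCs and NPC_LPCs, the group cannot be told apart from the mouse genotype and from the viral vector, which is named for Hep_LPCs alone. Of the 8 genes, Krt8, Krt7 and Krt80 share 5.16%, 1.09% and 4.11% of their exonic length with a noncoding gene on the other strand, and a pseudogene not counted in the tables matches Krt8 at 98.6% identity over 941 bases. Read assignment for these stretches is uncertain.

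In Bec_LPCs against Hep_LPCs, Krt17 rose and Krt20 and Krt80 fell, with the other 5 keratins not past the test. In Bec_LPCs against NPC_LPCs, Krt7 and Krt17 rose and the other 6 did not pass. In Hep_LPCs against NPC_LPCs none of the 7 keratins tested passed. Both Hep_LPCs libraries stood above both NPC_LPCs libraries for 6 of them. Libraries did not overlap, in either direction, for 56.6% of the 12159 genes tested there that all tables share. Calling a gene meant an adjusted p under 0.05 in edgeR's quasi-likelihood test, with the Benjamini-Hochberg method applied over all genes tested. The 3 keratin calls against Hep_LPCs stand beside 33.4% of all 12868 genes called in that comparison, 16.1% higher and 17.2% lower. The 2 calls against NPC_LPCs stand beside 11.3% of all genes, 4.88% higher and 6.44% lower. Krt17 is in both counts and had 0 counts outside Bec_LPCs. It passed the low-count filter only through the group where it was high, so its calls are not comparable with these shares. The 0 calls between Hep_LPCs and NPC_LPCs stand beside 0.795% of 12331 genes, 0.349% higher and 0.446% lower. Of those 7, 6 had an unadjusted p under 0.05, as had 2733 of the 12331 genes, and DESeq2's Wald test called 4 of them. Each of the 5 keratin calls rested on both Bec_LPCs libraries, since leaving out either left no keratin called in either comparison with Bec_LPCs.

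**Figure D1:**
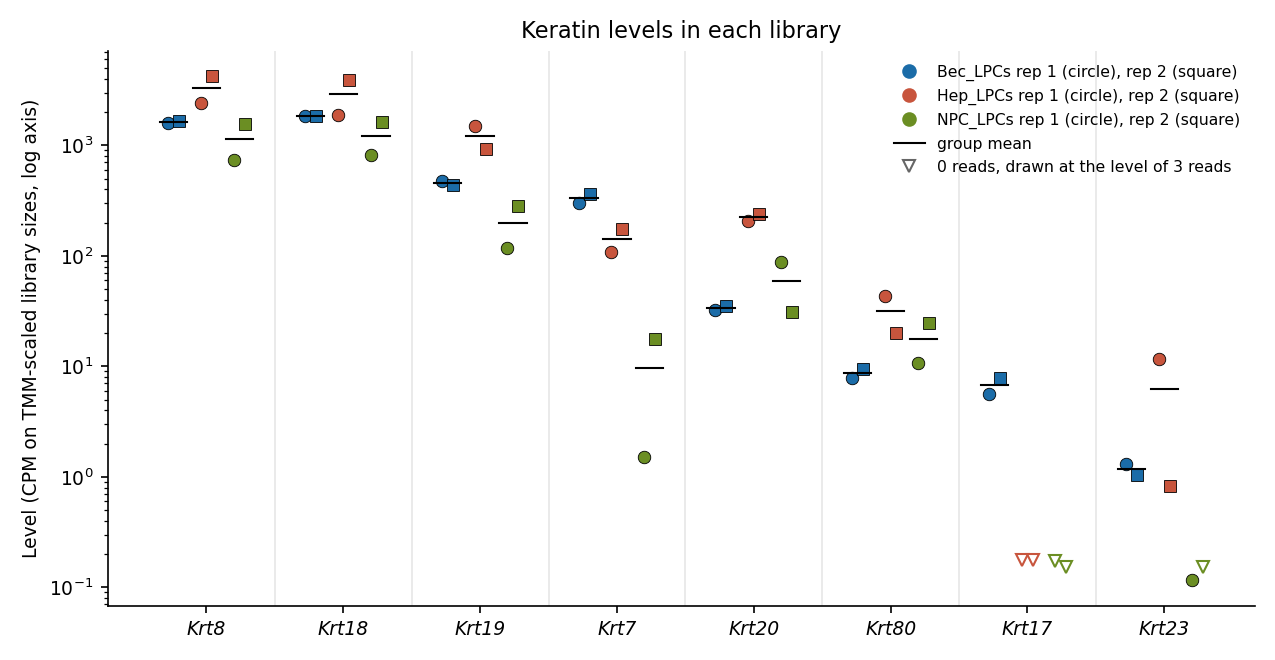
Level of each keratin in each library, in CPM on TMM-scaled library sizes (log axis), with the groups from left to right Bec_LPCs, Hep_LPCs and NPC_LPCs for every gene. Circles and squares are replicates 1 and 2, bars are group means, and open triangles mark 0 counts. Krt17 has counts in the Bec_LPCs libraries and none elsewhere, and Krt7 is lowest in the NPC_LPCs libraries, at 1.50 and 17.7 CPM.

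Krt8 and Krt18, the core pair of liver epithelial filaments, took the most counts of these keratins in every library. Krt8 stood at 1596 and 1656 CPM in the Bec_LPCs libraries, 2414 and 4242 CPM in the Hep_LPCs libraries and 734 and 1550 CPM in the NPC_LPCs libraries (replicates 1 and 2 here and throughout). The Hep_LPCs libraries were the highest and the NPC_LPCs libraries the lowest, with no overlap between any 2 groups. In these libraries Krt8 ranked 29 and 29 among 20573 genes by count in Bec_LPCs, 17 and 6 in Hep_LPCs, and 156 and 42 in NPC_LPCs. Krt18 stood at 1854 and 1849.9 CPM in Bec_LPCs, 1899 and 3916 CPM in Hep_LPCs and 817 and 1609.7 CPM in NPC_LPCs. The Bec_LPCs libraries were almost alike for Krt18, at 1852 ± 2.85 CPM, whereas Hep_LPCs, at 2907.5 ± 1426 CPM, and NPC_LPCs, at 1213 ± 561 CPM, each spread about their means by more (SD, n = 2 each). The libraries are bulk RNA, so fewer cells with a keratin and less of it per cell cannot be told apart here or below.

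Neither gene was called in any comparison by edgeR. Krt8 differed by 1.52 ± 0.48 (log2 fold change ± SE, adjusted p = 0.154, edgeR) and Krt18 by 1.24 ± 0.49 (adjusted p = 0.218) between Hep_LPCs and NPC_LPCs. Across the 8 keratins, 6 had libraries that did not overlap in that comparison, as had 56.6% of the 12159 genes tested there that all tables share. Between Bec_LPCs and Hep_LPCs the differences were -1.03 ± 0.42 for Krt8 (adjusted p = 0.107, edgeR) and -0.65 ± 0.44 for Krt18 (adjusted p = 0.29). Between Bec_LPCs and NPC_LPCs they were 0.51 ± 0.42 for Krt8 (adjusted p = 0.449) and 0.61 ± 0.44 for Krt18 (adjusted p = 0.39). DESeq2's Wald test put Krt8 past the threshold in 2 of these, at an adjusted p of 0.0303 between Bec_LPCs and Hep_LPCs and 0.0117 between Hep_LPCs and NPC_LPCs.

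The ratio of Krt8 to Krt18 counts within a library stayed between 0.861 and 1.27, while Krt8 itself ran between 734 and 4242 CPM. The ratio was 0.861 and 0.895 in Bec_LPCs, 1.27 and 1.08 in Hep_LPCs and 0.898 and 0.963 in NPC_LPCs. The Hep_LPCs libraries were the only ones with more Krt8 than Krt18 counts. With 2 libraries a group, the exact two-sided permutation test gave p = 0.333 for each of the 3 comparisons of this ratio, which is the smallest p that 2 against 2 can give. After each gene was centred on its own mean, the log2 levels of Krt8 and Krt18 differed by a root mean square of 0.20 over the 6 libraries, the smallest value of any pair among these keratins. The others ranged from 0.64 for Krt8 and Krt19 to 3.77 for Krt20 and Krt17. Krt17 had 0 counts in Hep_LPCs and NPC_LPCs, so its values here depend on the prior count added before the log. The measure is not scaled to how far a gene varies, so genes that vary little come out closer.

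Krt19, the type I keratin of bile duct cells, had its highest levels in the hepatocyte-derived cells and not in the duct-derived ones, but no comparison passed by edgeR. It stood at 472 and 441 CPM in Bec_LPCs, 1511 and 932 CPM in Hep_LPCs and 117 and 282 CPM in NPC_LPCs. Each group lay apart from the other 2, with Hep_LPCs highest and NPC_LPCs lowest. The means were 456 ± 21.9 CPM in Bec_LPCs, 1221.5 ± 409.8 CPM in Hep_LPCs and 199 ± 117 CPM in NPC_LPCs (SD, n = 2 each). The difference between Hep_LPCs and NPC_LPCs was 2.59 ± 0.51 on the log2 scale, with an adjusted p of 0.079 by edgeR. This value crossed the threshold in 4 of 12 alternatives, among them the fit of all 6 libraries (adjusted p = 0.0321) and the fit without NPC_LPCs replicate 2 (adjusted p = 0.0453). Between Bec_LPCs and Hep_LPCs it was -1.42 ± 0.45 with an adjusted p of 0.0568. Here the call came with DESeq2's Wald test (adjusted p = 0.00401), in the fit of these 2 groups alone (adjusted p = 0.0205) and without NPC_LPCs replicate 1 or 2 (adjusted p = 0.0207 and 0.0214). For Bec_LPCs against NPC_LPCs it was 1.20 ± 0.45 with an adjusted p of 0.135. There it was called by the Wald test (adjusted p = 0.033) and without NPC_LPCs replicate 2 (log2 fold change 1.97, adjusted p = 0.0481).

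The 2 Hep_LPCs libraries did not differ in the same direction for all keratins. Krt19 was 1.62 times higher in replicate 1, as were Krt80 (2.15 times) and Krt23 (14.1 times), whereas Krt8, Krt18, Krt7 and Krt20 were higher in replicate 2. The ratio of Krt19 to Krt18 counts was 0.255 and 0.238 in Bec_LPCs, 0.796 and 0.238 in Hep_LPCs and 0.143 and 0.175 in NPC_LPCs. Hep_LPCs replicate 1 stood apart from the other 5 libraries, and Hep_LPCs replicate 2 had the same ratio as Bec_LPCs replicate 2. The groups Bec_LPCs and Hep_LPCs overlapped in this ratio, with an exact two-sided permutation p of 1.00.

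**Figure D2:**
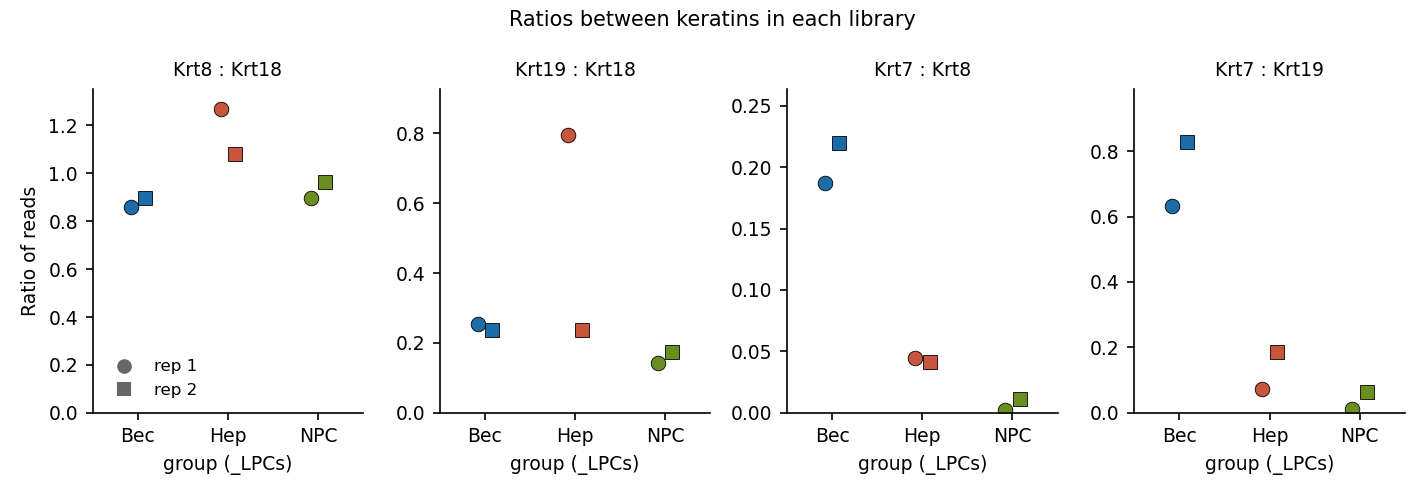
Ratios of counts between pairs of keratins within each library, each panel on its own linear axis from 0, for Bec_LPCs, Hep_LPCs and NPC_LPCs from left to right. Circles are replicate 1 and squares replicate 2. The ratio of Krt7 to Krt8 is 0.187 and 0.220 in Bec_LPCs and at most 0.0450 elsewhere, and the ratio of Krt19 to Krt18 is highest in Hep_LPCs replicate 1, at 0.796.

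Krt7, the type II keratin of bile duct cells, separated the groups more widely than the core pair. It stood at 298 and 365 CPM in Bec_LPCs, 109 and 174 CPM in Hep_LPCs and 1.50 and 17.7 CPM in NPC_LPCs. The groups did not overlap, with Bec_LPCs highest. The 2 NPC_LPCs libraries differed 11.8-fold between themselves, from 26 counts in replicate 1 and 348 counts in replicate 2, while the replicates of the other groups differed by at most 1.60-fold. Krt7 rose in Bec_LPCs against NPC_LPCs, by 5.10 ± 1.06 on the log2 scale (adjusted p = 0.0387, edgeR), with means of 332 ± 46.9 CPM in Bec_LPCs and 9.60 ± 11.45 CPM in NPC_LPCs (SD, n = 2 each). The call did not hold without Bec_LPCs replicate 1 or 2 (adjusted p = 0.25 and 0.256), without Hep_LPCs replicate 1 or 2 (adjusted p = 0.0568 and 0.0577), or in the fit of the 2 groups alone (adjusted p = 0.0555). The size of the difference followed the NPC_LPCs library kept, at 4.18 without replicate 1 and 7.78 without replicate 2.

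The same gene differed by 3.84 ± 1.12 between Hep_LPCs and NPC_LPCs (adjusted p = 0.152, edgeR), where the spread between the NPC_LPCs libraries enters the fit. With either NPC_LPCs library left out it was called, at 2.98 (adjusted p = 0.0255) without replicate 1 and at 6.55 (adjusted p = 0.0158) without replicate 2. The remaining NPC_LPCs library is then assumed to vary as the Hep_LPCs pair does. Between Bec_LPCs and Hep_LPCs, Krt7 differed by 1.23 ± 0.89 (adjusted p = 0.321, edgeR). Its call there also depended on the NPC_LPCs libraries in the fit, with adjusted p values of 0.0324 and 0.0316 without replicate 1 or 2 and of 0.0319 without both. Relative to its usual type II alternative, the ratio of Krt7 to Krt8 counts was 0.187 and 0.220 in Bec_LPCs, 0.0450 and 0.0411 in Hep_LPCs and 0.00205 and 0.0114 in NPC_LPCs. The ratio of Krt7 to Krt19, the pair that marks ducts, was 0.632 and 0.827 in Bec_LPCs, 0.0719 and 0.187 in Hep_LPCs and 0.0129 and 0.0627 in NPC_LPCs. Both ratios put the groups in the same order without overlap, each at p = 0.333 by the exact permutation test.

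Krt20, the type I keratin of intestinal and urothelial surface cells, was highest in the hepatocyte-derived cells. It stood at 32.3 and 35.5 CPM in Bec_LPCs, 207 and 239 CPM in Hep_LPCs and 87.7 and 31.2 CPM in NPC_LPCs. Both Hep_LPCs libraries lay above the other 4, and the NPC_LPCs pair spanned the Bec_LPCs pair. Krt20 fell in Bec_LPCs against Hep_LPCs, by 2.72 on the log2 scale (SE 0.48, adjusted p = 0.0124, edgeR), with means of 33.9 ± 2.24 CPM in Bec_LPCs and 223 ± 22.3 CPM in Hep_LPCs (SD, n = 2 each). This call was lost only without Bec_LPCs replicate 1 or 2 (adjusted p = 0.0811 and 0.076), among the 13 alternatives run. Between Hep_LPCs and NPC_LPCs the difference was 1.90 ± 0.49 (adjusted p = 0.111, edgeR), and it was called without NPC_LPCs replicate 1 (2.82, adjusted p = 0.0183). For Bec_LPCs against NPC_LPCs it was -0.81 ± 0.46 (adjusted p = 0.281). There NPC_LPCs replicate 1 decided the sign, since without it the difference was 0.07 (adjusted p = 0.83), and without replicate 2 it was -1.37 (adjusted p = 0.0284). Within NPC_LPCs, Krt20 was 2.81 times higher in replicate 1, whereas Krt7, Krt8, Krt18, Krt19 and Krt80 were all higher in replicate 2.

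Krt80, a type II keratin of differentiating epithelia, stood at 7.81 and 9.52 CPM in Bec_LPCs, 43.1 and 20.0 CPM in Hep_LPCs and 10.8 and 24.8 CPM in NPC_LPCs. The Bec_LPCs libraries were the lowest 2 of the 6, and the Hep_LPCs and NPC_LPCs libraries overlapped. Krt80 fell in Bec_LPCs against Hep_LPCs, by 1.86 on the log2 scale (SE 0.53, adjusted p = 0.0419, edgeR), with means of 8.66 ± 1.21 CPM in Bec_LPCs and 31.5 ± 16.3 CPM in Hep_LPCs (SD, n = 2 each). The call was close to the threshold and did not hold with library size alone (adjusted p = 0.0513), limma-voom (0.051), the replicate number as a block (0.059), without Bec_LPCs replicate 1 or 2 (0.199 and 0.154) or without Hep_LPCs replicate 1 (-1.21, adjusted p = 0.16). Between Hep_LPCs and NPC_LPCs it differed by 0.80 ± 0.55 (adjusted p = 0.438, edgeR) and between Bec_LPCs and NPC_LPCs by -1.04 ± 0.52 (adjusted p = 0.233).

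Krt17, the type I keratin of skin appendages and wounded epithelium, was counted only in the duct-derived cells. Its 2 Bec_LPCs libraries held 134 and 184 counts, or 5.65 and 7.89 CPM, and the 4 Hep_LPCs and NPC_LPCs libraries held 0 counts. A count of 0 allows up to 3 counts, 0.176 and 0.178 CPM in the Hep_LPCs libraries and 0.173 and 0.152 CPM in the NPC_LPCs libraries, and this bound covers counting error only. Krt17 was at least 38.3-fold higher in Bec_LPCs than in Hep_LPCs (adjusted p = 0.00919, edgeR) and at least 41.6-fold higher than in NPC_LPCs (adjusted p = 0.0216), against a floor of 3 counts per library. Both calls were lost without Bec_LPCs replicate 1 or 2, at adjusted p values of 0.0592 and 0.0722 against Hep_LPCs and of 0.132 and 0.171 against NPC_LPCs. The paralogue Krt14, whose transcript matches Krt17 at 89.4% identity over 961 bases, held 9 and 7 counts in Bec_LPCs, 0 and 3 in Hep_LPCs and 0 and 0 in NPC_LPCs. FPKM was also listed at 0 for Krt17 in the 4 libraries that have it. Whether the different layout of the Bec_LPCs tables has a part in this difference was not tested.

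Krt23, the type I keratin known from injured liver, was low and carried by a single library. It held 31 and 24 counts in Bec_LPCs, 200 and 14 in Hep_LPCs and 2 and 0 in NPC_LPCs, or 1.31 and 1.03 CPM in Bec_LPCs, 11.7 and 0.831 CPM in Hep_LPCs and 0.115 and 0 CPM in NPC_LPCs. The 2 Hep_LPCs libraries differed 14.1-fold and lay on either side of the Bec_LPCs pair. No comparison passed by edgeR, with adjusted p values of 0.176 between Bec_LPCs and Hep_LPCs, 0.152 between Bec_LPCs and NPC_LPCs and 0.119 between Hep_LPCs and NPC_LPCs. The difference between Bec_LPCs and Hep_LPCs was -2.42 ± 1.24 with both Hep_LPCs libraries, 0.49 without replicate 1 (adjusted p = 0.741) and -3.32 without replicate 2 (adjusted p = 0.0381).

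**Figure D3:**
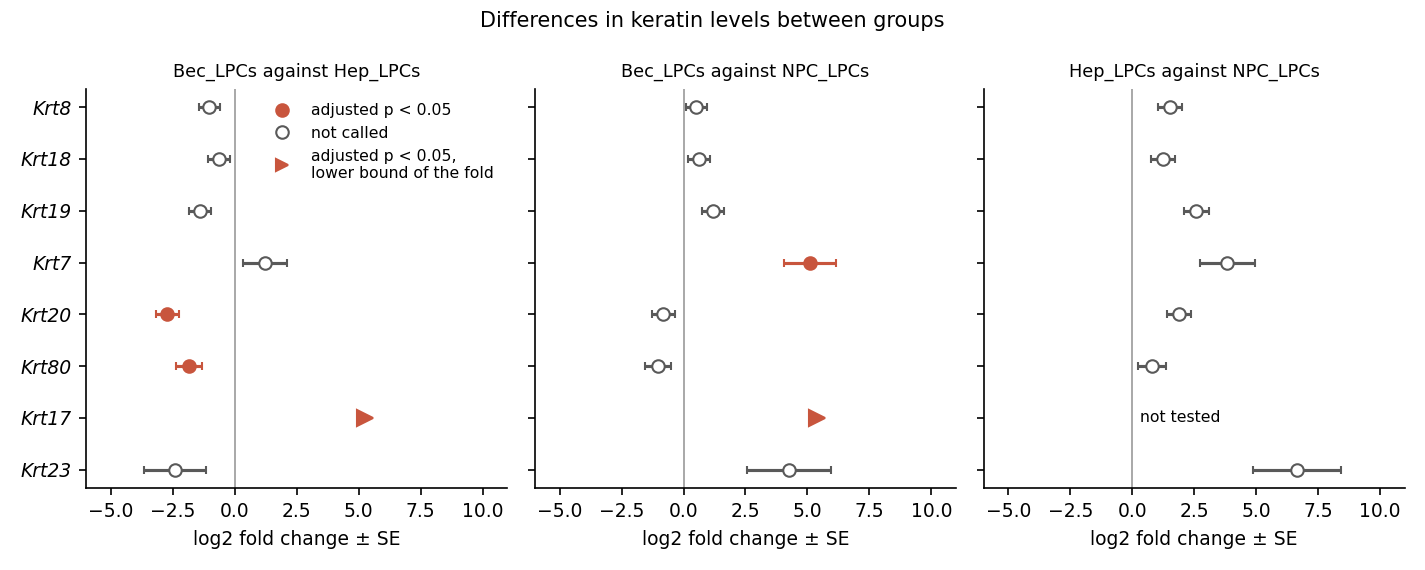
Log2 fold change with its SE for each keratin in Bec_LPCs against Hep_LPCs, Bec_LPCs against NPC_LPCs and Hep_LPCs against NPC_LPCs, from edgeR, where positive values are higher in the group named first. Filled symbols passed an adjusted p of 0.05, and triangles are lower bounds against the floor of 3 counts. The filled symbols are Krt20, Krt80 and Krt17 on the left and Krt7 and Krt17 in the middle, and Krt17 could not be tested between Hep_LPCs and NPC_LPCs.

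Read as a set, the 8 keratins had a median log2 difference of -1.23 in Bec_LPCs against Hep_LPCs, where the median of all genes tested was 0.03. It was 0.90 in Bec_LPCs against NPC_LPCs, where all genes had 0.01, and 1.90 over the 7 tested in Hep_LPCs against NPC_LPCs, where all genes had 0. These 3 medians use the same libraries more than once and are not independent. The genes were chosen with earlier results of these data known, so the medians are a description only. In each comparison with Bec_LPCs, 7 of the 8 genes had libraries that did not overlap between groups, which held for 77.6% of all genes against Hep_LPCs and 70.0% against NPC_LPCs.

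The 8 genes together took 0.440% and 0.450% of all counts in Bec_LPCs, 0.584% and 0.913% in Hep_LPCs and 0.171% and 0.335% in NPC_LPCs. Their summed level was 4316.5 ± 68.9 CPM in Bec_LPCs, 7859 ± 2354 CPM in Hep_LPCs and 2641 ± 1236 CPM in NPC_LPCs (SD, n = 2 each). No groups overlapped in the sum, and the exact permutation p was 0.333 for each comparison. Of these keratin counts, Krt8 and Krt18 made up 80.8% and 80.3% in Bec_LPCs, 69.6% and 85.7% in Hep_LPCs and 87.7% and 89.9% in NPC_LPCs. Krt7 made up 6.99% and 8.35% in Bec_LPCs, 1.75% and 1.83% in Hep_LPCs and 0.0849% and 0.503% in NPC_LPCs. Krt20 was 0.757% and 0.813% in Bec_LPCs, 3.34% and 2.50% in Hep_LPCs and 4.96% and 0.888% in NPC_LPCs. Krt19 made up 24.4% in Hep_LPCs replicate 1 and between 6.60% and 11.1% in the other 5 libraries.

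**Figure D4:**
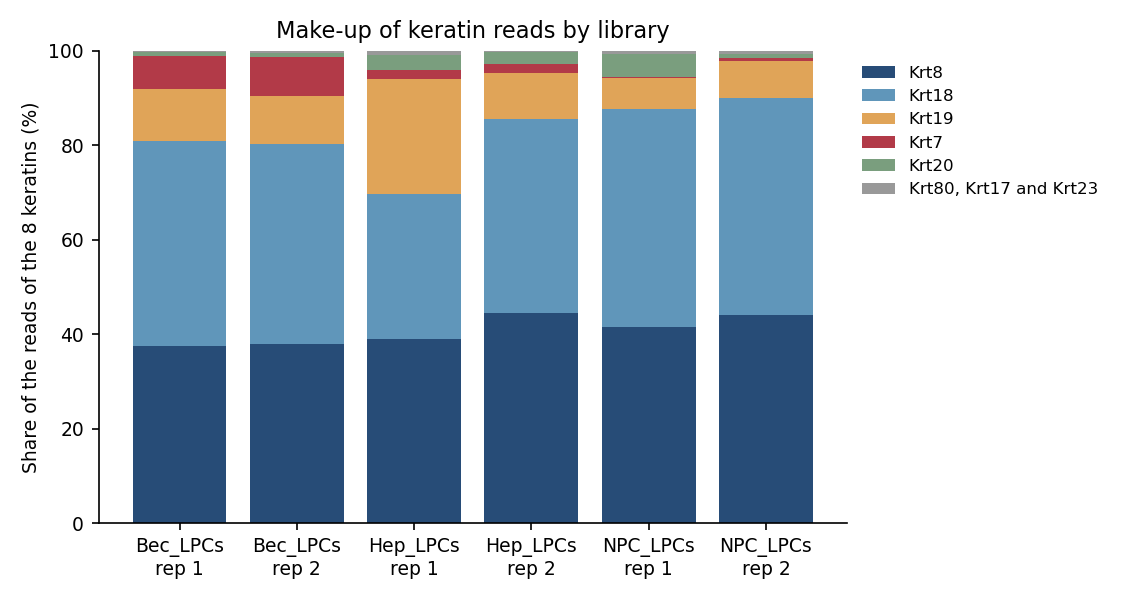
Share of the counts of the 8 keratins that each gene takes in each library, in percent, with the Bec_LPCs, Hep_LPCs and NPC_LPCs libraries from left to right. Krt8 and Krt18 together take between 69.6% and 89.9%. The Krt7 share is 6.99% and 8.35% in Bec_LPCs and at most 1.83% elsewhere, and the Krt19 share is largest in Hep_LPCs replicate 1, at 24.4%.

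Levels of different genes were set side by side per kilobase of coding sequence, since the longest annotated Krt7 transcript used here has 4094 bases for 1371 coding bases. Krt18 stood at 1461.0 and 1458 CPM per coding kb in Bec_LPCs, 1496 and 3086 in Hep_LPCs and 644 and 1269 in NPC_LPCs. Krt8 stood at 1086.0 and 1126 CPM per coding kb in Bec_LPCs, 1642 and 2886 in Hep_LPCs and 499 and 1054 in NPC_LPCs. The order was thus Krt18, Krt8 and Krt19 in every library but Hep_LPCs replicate 1, in which Krt8 was first and Krt18 and Krt19 followed at 1496 and 1250.0 CPM per coding kb. In the authors' FPKM for that library, Krt19 was above Krt18, at 834 and 807 FPKM, so neighbours in this order were not separated. The fourth place went to Krt7 in Bec_LPCs, at 218 and 266 CPM per coding kb, where Krt20 stood at 25.0 and 27.5. In Hep_LPCs, Krt20, at 160 and 185 CPM per coding kb, was ahead of Krt7, at 79.3 and 127, although FPKM reversed the pair in replicate 2. In NPC_LPCs the fourth place went to Krt20, at 67.8 and 24.1 CPM per coding kb, where Krt7 stood at 1.10 and 12.9. Summed over the 8 genes per coding kb, type I keratins stood to type II keratins at 1.44 and 1.33 in Bec_LPCs, 1.66 and 1.33 in Hep_LPCs and 1.59 and 1.41 in NPC_LPCs. These ratios overlapped between all groups, with exact permutation p values between 0.667 and 1.00.

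The other 45 keratin genes, mostly of skin, hair and cornea, were at or near 0. Of them, 22 had 0 counts in all 6 libraries and 34 had at most 10 counts in every library. A single gene passed 100 counts anywhere, Krt87, a hair-type keratin with 82 and 103 counts in Bec_LPCs and 0 in the other 4 libraries. It lies 724 bases from Krt7 on the opposite strand, and its Bec_LPCs counts came to 1.16 and 1.21 per 100 Krt7 counts. Krt87 was called higher in Bec_LPCs, at least 22.3-fold against Hep_LPCs (adjusted p = 0.0123, edgeR) and at least 24.2-fold against NPC_LPCs (adjusted p = 0.0266). Hep_LPCs replicate 2 held 2938 Krt7 counts and no Krt87 count, in a table laid out differently from those of Bec_LPCs. The source of the Krt87 counts was not tested. Of the 8 other keratins tested between Bec_LPCs and Hep_LPCs, 1 rose, Krt87, and 4 fell, beside 16.1% of all genes called higher and 17.2% called lower there. Each called gene had at most 4 counts in any library of its lower group. It therefore passed the low-count filter only through the group where it was high, so this tally is not comparable with the share of all genes. Krt79, a keratin of sebaceous and hair follicle ducts, averaged 0 CPM in Bec_LPCs, against 3.07 ± 0.613 CPM in Hep_LPCs (SD, n = 2 each, adjusted p = 0.00991 by edgeR). Krt78 averaged 0.0847 CPM in Bec_LPCs, against 1.74 CPM in Hep_LPCs (adjusted p = 0.0176), and the other two were Krt15, a keratin of basal and stem cells of stratified epithelium, and Krt76. None of the 7 tested between Hep_LPCs and NPC_LPCs was called. All of these calls, Krt87 included, were lost without Bec_LPCs replicate 1 or 2, at adjusted p values of 0.0758 to 0.307. Without Hep_LPCs replicate 1 the calls on Krt78 (0.0532), Krt15 (0.112) and Krt76 (0.123) were lost, and without Hep_LPCs replicate 2 those on Krt15 (0.0589) and Krt76 (0.0873). Krt15 was also not called with no low-count filter (0.0591) or by the Wald test (0.052).

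Keratin filaments are anchored at desmosomes and hemidesmosomes, and 15 of 16 genes listed for these anchors are in the shared tables. In Bec_LPCs 4 rose and 1 fell against NPC_LPCs, 2 rose and 1 fell against Hep_LPCs, and none of 14 was called between Hep_LPCs and NPC_LPCs. These are 5 of 15 and 3 of 15 genes tested, beside 11.3% of all genes called against NPC_LPCs and 33.4% against Hep_LPCs, and 0.795% between Hep_LPCs and NPC_LPCs. Pkp1, a desmosomal plakophilin of stratified epithelium, averaged 53.0 ± 6.00 CPM in Bec_LPCs, 1.53 ± 0.402 CPM in Hep_LPCs and 5.34 ± 0.361 CPM in NPC_LPCs (SD, n = 2 each). It rose by 5.11 ± 0.30 on the log2 scale against Hep_LPCs (adjusted p = 0.000861, edgeR) and by 3.31 ± 0.27 against NPC_LPCs (adjusted p = 0.00325), and it was called in every alternative run. Pkp3, another plakophilin, averaged 7.70 CPM in Bec_LPCs, 0.411 CPM in Hep_LPCs and 0.249 CPM in NPC_LPCs, with adjusted p values of 0.0121 against Hep_LPCs and 0.0216 against NPC_LPCs. Pkp3 had at most 11 counts in any Hep_LPCs or NPC_LPCs library and passed the low-count filter only through Bec_LPCs. Its calls are therefore not comparable with the shares of all genes. Itgb4, the hemidesmosomal integrin subunit, averaged 316 ± 1.88 CPM in Bec_LPCs, 160 ± 62.3 CPM in Hep_LPCs and 29.5 ± 15.9 CPM in NPC_LPCs, and rose in Bec_LPCs against NPC_LPCs by 3.42 ± 0.47 (adjusted p = 0.0151). Its partner Itga6 rose there by 1.27 ± 0.25 (adjusted p = 0.0339). Ppl, a plakin that links filaments to desmosomes, fell by 1.31 in Bec_LPCs against Hep_LPCs (adjusted p = 0.0125) and fell by 1.18 against NPC_LPCs (adjusted p = 0.0344). Of these calls, those on Pkp3, Itgb4, Itga6 and Ppl were lost when either Bec_LPCs library was left out, at adjusted p values of 0.0707 to 0.274. Those against NPC_LPCs were also lost without NPC_LPCs replicate 1 for Itga6 (0.105) and Ppl (0.0605) and without replicate 2 for Pkp3 (0.0549) and Itga6 (0.0571).

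Of 9 other intermediate filament genes, none was called between Bec_LPCs and NPC_LPCs or between Hep_LPCs and NPC_LPCs. Vim, the vimentin of mesenchymal and cultured cells, stood at 1788 ± 36.8 CPM in Bec_LPCs, 2186.5 ± 125.8 CPM in Hep_LPCs and 1758 ± 224 CPM in NPC_LPCs (SD, n = 2 each), and was not called in any comparison. Between Bec_LPCs and Hep_LPCs, Nes (nestin, a filament of progenitor cells) rose by 3.70 ± 0.68 (adjusted p = 0.0132, edgeR), Synm (synemin) rose by 1.68 ± 0.33 (adjusted p = 0.0151), and Prph (peripherin) fell by 4.57 (adjusted p = 0.00836). These are 3 of 8 tested, beside 33.4% of all genes. With 2 and 5 counts in Bec_LPCs, Prph did not pass the low-count filter through that group, so its call is not comparable with this share. All 3 calls were lost without Bec_LPCs replicate 1 or 2 (adjusted p = 0.0718 to 0.112), and that on Nes also without Hep_LPCs replicate 1 or 2 (0.0531 and 0.063).

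Among 15 regulators of epithelial transcription and splicing, 11 were tested in the comparisons with Bec_LPCs, where 2 rose and 7 fell in Bec_LPCs against Hep_LPCs, beside 33.4% of all genes called there. The 2 that rose, Esrp1 and Grhl2, had at most 11 counts in any other library and passed the low-count filter only through Bec_LPCs. Cdx2, which fell, had 2 counts in each Bec_LPCs library and did not pass through that group. This tally is therefore not comparable with the share of all genes. Cdx2, an intestinal homeobox factor, had 0.0844 and 0.0857 CPM in Bec_LPCs, 34.7 and 30.9 CPM in Hep_LPCs and 3.52 and 4.52 CPM in NPC_LPCs. Both Hep_LPCs libraries were the highest, as they were for Krt20. Cdx2 fell by 8.49 in Bec_LPCs against Hep_LPCs (adjusted p = 0.000495, edgeR) and fell by 5.46 in Bec_LPCs against NPC_LPCs (adjusted p = 0.00213), and rose by 3.0 ± 0.35 in Hep_LPCs against NPC_LPCs (adjusted p = 0.0382), the only regulator called there. The last of these was lost without Hep_LPCs replicate 1 or 2 (0.17 and 0.188), without NPC_LPCs replicate 2 (0.0533), with limma-voom (0.0668) and with the replicate block (0.0509). Esrp1, a splicing factor of epithelial cells, had 19.4 and 24.0 CPM in Bec_LPCs, 0.0585 and 0.119 CPM in Hep_LPCs and 0 and 0.0508 CPM in NPC_LPCs, and was called higher in Bec_LPCs in every alternative run. Grhl2, an epithelial transcription factor, averaged 7.11 CPM in Bec_LPCs, 0.414 CPM in Hep_LPCs and 0.0543 CPM in NPC_LPCs, and edgeR gave 0.0111 against Hep_LPCs and 0.012 against NPC_LPCs as its adjusted p. Against Hep_LPCs, Klf4, Klf5, Elf3, Esrp2, Grhl1 and Tfap2a fell along with Cdx2. Klf5, a factor of proliferating epithelium, averaged 64.0 ± 5.70 CPM in Bec_LPCs and 126 ± 15 CPM in Hep_LPCs (SD, n = 2 each, adjusted p = 0.0151 by edgeR). Apart from those on Cdx2 and Esrp1, the regulator calls named here were lost without Bec_LPCs replicate 1 or 2, at adjusted p values of 0.0848 to 0.298. Those on Esrp2 (0.0594), Grhl1 (0.121) and Tfap2a (0.0761) were also lost without Hep_LPCs replicate 1. Library size alone ended the call on Grhl1 (0.0533), and limma-voom that on Tfap2a (0.0846).

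Genes of cell types that these cultures could also hold were measured beside the keratins, and their part in the keratin differences was not tested. Epcam, for which the series text calls Bec_LPCs positive, averaged 62.3 CPM in Bec_LPCs, 1.10 CPM in Hep_LPCs and 0.363 CPM in NPC_LPCs. Of other duct markers, Cldn7 was also highest in Bec_LPCs, at 18.3 CPM, against 0.0593 CPM in Hep_LPCs and 0 in NPC_LPCs. Spp1 averaged 2767 CPM in Bec_LPCs, 2070 CPM in Hep_LPCs and 6862 CPM in NPC_LPCs. Sox9 averaged 148, 118 and 176 CPM in the same order. Both means were highest in NPC_LPCs, and neither gene was called in any comparison by edgeR. Cftr and Slc10a2 averaged at most 1.15 and 5.19 CPM. The 7 hepatocyte markers summed to 105 to 128 CPM in Bec_LPCs, 257 to 265 CPM in Hep_LPCs and 29.2 to 51.4 CPM in NPC_LPCs, nearly all of it Hnf4a. Cyp2e1 was at 0 in all libraries. Alb had 23 and 10 counts in Bec_LPCs, 41 and 2 in Hep_LPCs and 2 and 3 in NPC_LPCs, and Apoa1 had 0 and 1 counts in Bec_LPCs, 95 and 16 in Hep_LPCs and 0 in both NPC_LPCs libraries. Of the 4 hepatocyte markers tested, Hnf4a (adjusted p = 0.0308, edgeR) and Apoa1 (adjusted p = 0.0291) fell in Bec_LPCs against Hep_LPCs, beside 17.2% of all genes called lower there. Apoa1 passed the low-count filter only through Hep_LPCs, so its call is not comparable with that share. Hnf4a (adjusted p = 0.0334, edgeR) and Ttr (adjusted p = 0.0284) rose in Bec_LPCs against NPC_LPCs, beside 4.88% of all genes called higher there. Ttr had 0 and 1 counts in NPC_LPCs and did not pass the filter through that group. Of 3 tested between Hep_LPCs and NPC_LPCs, Hnf4a rose in Hep_LPCs (adjusted p = 0.0472, edgeR), beside 0.349% of all genes called higher. The 9 mesenchymal markers summed to 186 to 223 CPM in Bec_LPCs, 3.38 to 5.56 CPM in Hep_LPCs and 5.14 to 17.4 CPM in NPC_LPCs. Of them Acta2 and Col1a1 were the highest in Bec_LPCs, and Lum and Lrat were at 0 everywhere. Of 6 mesenchymal markers tested, 5 rose in Bec_LPCs against Hep_LPCs and 3 against NPC_LPCs, beside 16.1% and 4.88% of all genes called higher there. Col1a2, Col3a1, Acta2 and Pdgfrb had at most 1 count in each Hep_LPCs library and were not tested between Hep_LPCs and NPC_LPCs. They passed the low-count filter only through Bec_LPCs, so this tally is not comparable with the share of all genes. Dcn was not tested and was lowest in Bec_LPCs, at 0.0425 CPM, against 0.235 CPM in Hep_LPCs and 0.903 CPM in NPC_LPCs. The 7 mesothelial markers, of a lining that also uses these keratins, summed to 538 to 576 CPM in Bec_LPCs, 213 to 866 CPM in Hep_LPCs and 241 to 645 CPM in NPC_LPCs, nearly all of it Msln. The 5 endothelial markers summed to 2.66 to 3.04 CPM in Bec_LPCs, 6.29 to 7.55 CPM in Hep_LPCs and 2.19 to 3.71 CPM in NPC_LPCs. Only Kdr was tested, and it fell in Bec_LPCs against Hep_LPCs (adjusted p = 0.0176, edgeR), beside 17.2% of all genes called lower. Pecam1, Cdh5 and Lyve1 went the other way, at 0.533, 0.383 and 0.575 CPM in Bec_LPCs against 0.0297, 0.176 and 0.117 CPM in Hep_LPCs. Stab2 averaged 0.129 CPM in Bec_LPCs and 0.148 CPM in Hep_LPCs. The 5 macrophage and leukocyte markers summed to 14 to 17.6 CPM in Bec_LPCs, 2.08 to 3.69 CPM in Hep_LPCs and 1.12 to 2.6 CPM in NPC_LPCs, with Clec4f at 0 in all libraries. Lyz2, the lysozyme of macrophages, made up most of the sum in Bec_LPCs and rose there against Hep_LPCs (adjusted p = 0.0199, edgeR) and against NPC_LPCs (adjusted p = 0.0477). With at most 11 counts in any other library, Lyz2 passed the low-count filter only through Bec_LPCs. Its calls are thus not comparable with the 16.1% and 4.88% of all genes called higher. Ptprc and Adgre1 also averaged highest in Bec_LPCs, whereas Csf1r averaged 1.60 CPM there and 2.59 CPM in Hep_LPCs, and none of these was called. Unlike those on the keratins, the calls on the cell type markers in this paragraph were not tried under the alternatives.

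The genes outside the keratins with the most similar pattern over the 6 libraries were found by the root-mean-square difference of centred log2 levels among 7036 genes of at least 32 CPM in their highest group. For Krt8 they were Ier2 (0.18), Hes1 (0.21), Lratd2 (0.28) and Ppa1 (0.28), and Krt18 itself was at 0.20. For Krt18 they were Rdh10 (0.20), Gadd45b (0.24), Orai1 (0.24) and Polr2f (0.25). For Krt19 the nearest was Hnf4a, the hepatocyte nuclear factor, at 0.29, ahead of Ank (0.47), Angptl4 (0.48) and Pcsk6 (0.52). Hnf4a stood at 126 and 104 CPM in Bec_LPCs, 248 and 263 CPM in Hep_LPCs and 28.8 and 51.2 CPM in NPC_LPCs, in the same order of groups as Krt19. Krt7 had no close match by this measure, which is not scaled to how far a gene varies. Its nearest was Clic6, a chloride channel gene, at 0.88, with 73.5 and 52.2 CPM in Bec_LPCs, 73.1 and 87.7 CPM in Hep_LPCs and 1.10 and 11.4 CPM in NPC_LPCs. It was followed by Gpx3 (1.16), Bmp7 (1.19) and Gria3 (1.21). Clic6 shared with Krt7 the low NPC_LPCs pair but not the order of Bec_LPCs and Hep_LPCs.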

How the data were processed

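RNA-seq libraries of 3 groups of cultured liver progenitor-like cells, 2 each, were grouped by their titles. Trimmomatic, HISAT2, Cufflinks, HTSeq and DESeq are named, with the build mm10, in the submitters' processing notes. Versions, roles and settings, the strand setting among them, were not given in the sources used here. Each library has a table deposited by the authors, with whole-number counts per gene symbol. The tables of Hep_LPCs and NPC_LPCs also hold FPKM, scaled for length and depth by the authors. Older symbols were updated with RefSeq synonyms (16 symbols of the Bec_LPCs tables and 843 of the others) and repeated symbols summed, which left 20573 shared symbols, against 19763 as deposited. Shared symbols held 95.3% to 95.4% of Bec_LPCs counts and 99.3% to 99.4% of the others. Rows without a name, 14 in each Bec_LPCs table with 0.000191% and 0.000181% of counts, were left out.

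The comparison of Hep_LPCs with NPC_LPCs used only their 4 libraries and the symbols of those tables, and both comparisons of Bec_LPCs used all 6 libraries. Genes passed filterByExpr, and edgeR's quasi-likelihood test (robust, two-sided) was used with TMM scaling and Benjamini-Hochberg adjustment over all genes tested (edgeR 4.0.16, limma 3.58.1, DESeq2 1.42.0, R 4.3.3), after a test on simulated data. Single values, such as ratios within a library, were compared by exact two-sided permutation tests, which cannot go below p = 0.333 at 2 against 2. The keratins and the other gene lists were chosen with earlier results of these data known, and 1 gene of the regulator list is not reported here. Named genes are the 8 keratins, the 4 nearest genes in pattern to Krt7, Krt8, Krt18 and Krt19, and members of each list that were called or highest; markers in the paragraph on cell types and Krt14 were named after their values were seen. A floor of 3 counts per library stands in for 0, and bounds cover counting error only. Near copies of the keratin transcripts were searched with blastn 2.17.0. The alternatives scaled by DESeq2 size factors or by library size alone, dropped the low-count filter, or used DESeq2's Wald test, limma-voom, the replicate number as a block, another set of libraries or limma on log2(FPKM + 1), and each library was left out in turn. Same-numbered libraries were not paired, since the correlations of their deviations from the group means were 0.087, -0.04 and -0.009.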

Additional observations from a re-analysis of the deposited data

How the results depend on the processing

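Between Bec_LPCs and NPC_LPCs, 1457 genes were called, against 2898 by DESeq2's Wald test, 2492 in the fit of the 2 groups alone and 770 with the replicate number as a block. Between Hep_LPCs and NPC_LPCs, 98 were called, against 515 with no low-count filter, 1517 by the Wald test, 5 by limma-voom and 1274 in the fit of all 6 libraries. Keratins called between Bec_LPCs and Hep_LPCs were 3, and 5 by the Wald test and in the fit of the 2 groups alone. Between Bec_LPCs and NPC_LPCs they were 2, and 4 by the Wald test and 1 in the fit of the 2 groups alone. Between Hep_LPCs and NPC_LPCs they were 0, and 4 by the Wald test, 1 with no low-count filter and 1 in the fit of all 6 libraries. With each library left out in turn, genes called ranged from 491 to 4908 between Bec_LPCs and Hep_LPCs, from 115 to 2363 between Bec_LPCs and NPC_LPCs and from 0 to 361 between Hep_LPCs and NPC_LPCs, and keratins called from 0 to 5, 0 to 4 and 0 to 2 in the same order. The low ends of both Bec_LPCs comparisons were the fits without a Bec_LPCs library, which leave that group 1 library assumed to vary like the others. The sign of a keratin difference turned in 2 cases, Krt20 between Bec_LPCs and NPC_LPCs (0.07 without NPC_LPCs replicate 1, and down to -1.37 without replicate 2) and Krt23 between Bec_LPCs and Hep_LPCs (0.49 without Hep_LPCs replicate 1, and down to -3.32 without replicate 2). The replicate block gave 3389 genes between Bec_LPCs and Hep_LPCs and 128 between Hep_LPCs and NPC_LPCs, and of the 5 keratin calls only Krt80 was lost under it. Its use is not based on the design, since the sample titles give a replicate number but state no pairing. Scaling by library size alone moved the share of calls that were higher from 43.1% to 61.3% between Bec_LPCs and NPC_LPCs and from 48.3% to 60.9% between Bec_LPCs and Hep_LPCs, with median shifts of all genes to 0.17 and 0.21 on the log2 scale. Of the list genes named, Krt15, Krt76, Krt87, Itga6, Grhl1 and Cdx2 each also lost a call under the block. The cause of these movements was not tested. Fitted log2 differences of the low keratins ranged widely over the alternatives, Krt17 between Bec_LPCs and Hep_LPCs from 7.83 with limma-voom to 10.21 and Krt23 between Hep_LPCs and NPC_LPCs from 1.40 on log2(FPKM + 1), a scale that understates low genes, to 9.80 without NPC_LPCs replicate 1. Against libraries at 0 such values depend on the prior count and are no bounds. Depth limits Krt17 and Krt23, which had at most 200 counts in every library.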
